A study of Mustela putorius furo with 10 samples.

Results

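Most TRIM and RNF genes encode RING-type ubiquitin ligases, and 72 genes of these names were measured in ferret peripheral blood mononuclear cells (PBMC) among 26303 genes tested. A gene was taken as a member when the RefSeq accession of its target sequence led to a ferret symbol of TRIM or RNF followed by a number, and when its signal was well above background on at least 4 of the 10 arrays. The 72 genes comprised 26 TRIM and 46 RNF genes.

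Ubiquitin ligases carry out the last step of ubiquitination, in which ubiquitin is passed from a conjugating enzyme (E2) to a target protein and marks it for degradation or alters its signalling. In RING-type ligases a zinc-binding RING domain holds the E2. TRIM proteins usually join the RING to B-box and coiled-coil domains, and many of them act in antiviral defence and are induced by interferon, whereas RNF genes share little beyond the RING and their products act at DNA breaks, at endosomes, at the endoplasmic reticulum (ER) and in NF-kB signalling.

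The study asked how cold exposure alters gene expression in PBMC. Male ferrets of 3 months of age were kept at 22 °C (control, 6 arrays) or at 4 °C for 1 week (cold, 4 arrays), and the cold ferrets were housed individually. PBMC were separated on a Ficoll gradient, and the RNA of each ferret, labelled with the green dye Cy3, was hybridised to its own array together with a reference pool, the same on every array, of RNA from PBMC and other tissues labelled with the red dye Cy5. Levels are therefore given as the log2 ratio of Cy3 to Cy5 after normalisation within the array, so that a value above 0 means more ferret signal, relative to the pool, than is typical of spots of that brightness on the array. It does not mean more signal than the pool, since the median intensity was higher in Cy3 than in Cy5 on all 10 arrays. PBMC are a mixture, and fewer cells of a type cannot be told apart from less RNA per cell.

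The array carried 40 of the 53 TRIM symbols of the ferret RefSeq table and 63 of the 82 RNF symbols. Of the TRIM genes on the array, 14 were not measured, and 8 of these had no probe well above background on any array. Of the RNF genes, 17 were not measured, 8 of them without a detected probe on any array. Most measured members were detected throughout, with 19 of 26 TRIM and 42 of 46 RNF genes above background on all 10 arrays. Genes with several target sequences were averaged over all their probes, which applied to 11 TRIM and 23 RNF genes.

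The arrays shared 1 scan day but differed in the reference channel. The median Cy5 intensity ran from 44 to 80 on control arrays and was 152, 48, 98 and 92 on cold arrays 1 to 4, whereas the ferret channel was brighter and more even, with 50.4 to 63.5% of spots detected in Cy3. In Cy5, 27.0 to 54.9% of spots were detected on control arrays and 40.5 to 64.0% on cold arrays. Marker genes of several blood cell types also moved with the groups. Of 7 T cell markers, 6 were lower in cold, 4 of them at an unadjusted p under 0.05 (log2 changes of -0.75 for LCK and -0.59 for CD3G among them). Over all genes tested, 52.0% were lower, and 12.5% were lower at that p. The mean log2 ratio of the T cell markers ran from 0.05 to 0.34 in control and from -0.67 to 0.12 in cold. All 5 measured monocyte markers were higher, with means of 0.53 to 1.10 against 1.05 to 1.90, and so were all 4 neutrophil markers (0.83 to 1.44 against 1.42 to 1.81) and all 5 platelet markers (-0.05 to 1.25 against 0.74 to 1.77). All 4 erythroid markers were lower (0.18 to 1.12 against -0.85 to -0.06), and theirs was the only 1 of the 7 lists whose means did not overlap between the groups. The means of 5 B cell markers (-0.13 to 1.36 against 0.41 to 0.92) and of 3 cytotoxic markers (0.29 to 0.60 against 0.14 to 0.74) overlapped, as did those of the T cell, monocyte, neutrophil and platelet lists. Between 3 and 7 of the 7 markers of each cell type were measured, with MS4A1 of the B cell list and HBB of the erythroid list among those that were not. The part of cell composition in the results below was not tested.

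Of 26 TRIM genes, 19 had a lower mean log2 ratio in cold and 7 a higher one. Their median log2 change was -0.15 with an interquartile range of -0.29 to -0.01, although it was 0.027 in the value table deposited by the authors. The RNF genes were evenly split, 23 lower and 23 higher, around a median of -0.0046 (-0.07 to 0.11). Over all 26303 genes the median was -0.01, and 52.0% were lower.

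On single arrays the TRIM median, taken as the deviation of each gene from its control mean, was -0.16, -0.10, -0.18 and -0.17 on cold arrays 1 to 4 and between -0.02 and 0.03 on the control arrays. The RNF median on the cold arrays was -0.0012, -0.03, 0.12 and -0.04, within the control range of -0.04 to 0.03 except on cold array 3. All 4 cold arrays thus lay below all 6 control arrays for the TRIM genes, while the groups overlapped for the RNF genes. Deviations are centred on the control arrays by construction, so that the control values lie near 0. Of the cold arrays, array 2, whose Cy5 intensity of 48 lay within the control range, had the smallest TRIM deviation. Cold array 1, the brightest in Cy5 at 152, had a smaller one than cold arrays 3 and 4, at 98 and 92. Whether the deviation follows the Cy5 intensity was not tested.

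**Figure D1:**
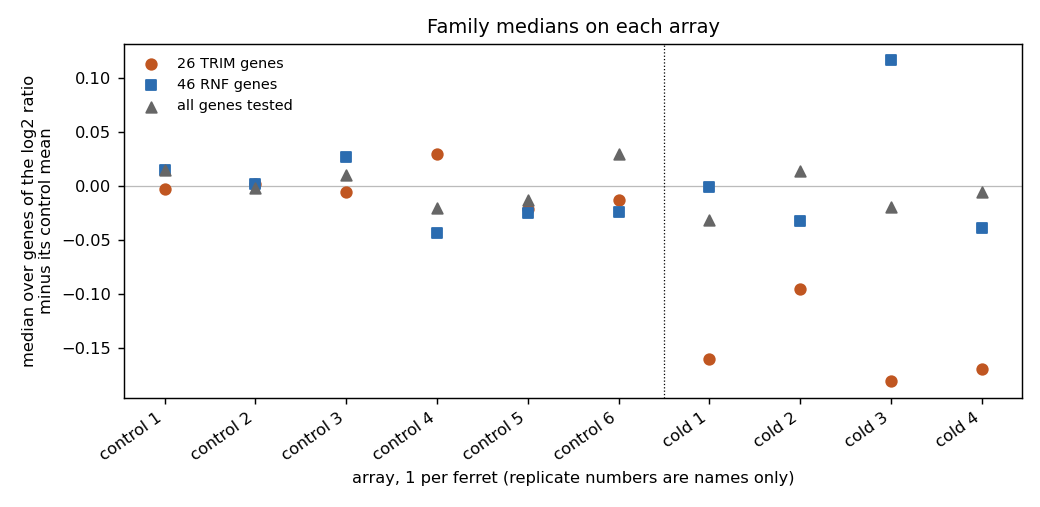
Median over the 26 TRIM genes (circles), the 46 RNF genes (squares) and all genes tested (triangles) of the log2 ratio minus its control mean, for each of the 6 control and 4 cold arrays. The TRIM medians of the cold arrays, -0.10 to -0.18, lie below those of every control array, and the RNF medians overlap between the groups.

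The order of the families depended on how the arrays were scaled. When loess was replaced by centring each array on its median, the whole set of genes shifted to a median of -0.43 with 77.1% of them lower. The TRIM median was then -0.39 and the RNF median -0.56, so that TRIM genes lay slightly above all genes and RNF genes below. Of the TRIM genes 23 were then lower and 3 higher, and of the RNF genes 38 were lower and 8 higher. In the authors' deposited value table, whose centring is not known, the medians were 0.027 for TRIM, -0.15 for RNF and 0.01 for all genes. There 12 TRIM genes were lower and 14 higher, and 32 RNF genes were lower and 14 higher, where 49.3% of all genes were lower. With the ferret channel Cy3 alone, the medians were -0.14, -0.04 and -0.04. Within the first slide position, with 2 cold and 4 control arrays, the TRIM and RNF medians were -0.16 and -0.03, and within the second, with 2 of each, -0.11 and -0.01. With the log2 of the median Cy5 intensity as a covariate they were -0.10 and -0.02.

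**Figure D2:**
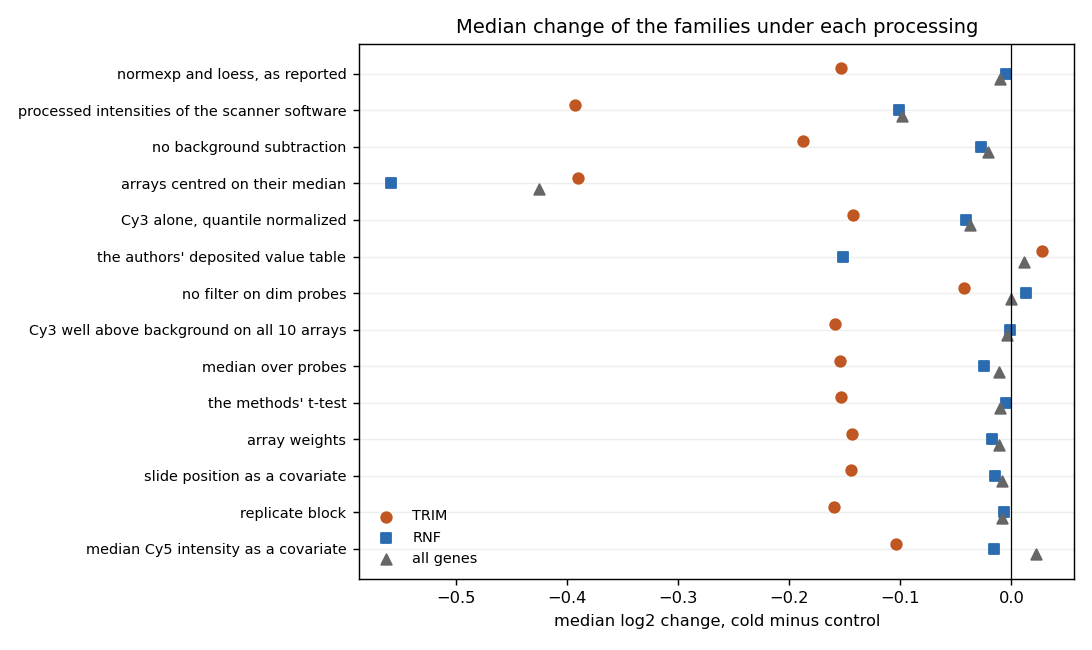
Median log2 change, cold minus control, of the TRIM genes (circles), the RNF genes (squares) and all genes (triangles) under each processing, listed on the vertical axis. The TRIM median lies below the other medians except with arrays centred on their median (TRIM -0.39, RNF -0.56) and in the deposited value table (TRIM 0.027, RNF -0.15).

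None of the 72 genes passed an adjusted p of 0.05 (limma with Benjamini-Hochberg adjustment over all genes), as none of the 26303 did. This count of 0 depended on the arrays and probes used. Without control array 5, TRIM22, TRIM13 and RNF144B passed (adjusted p = 0.0314, 0.0496 and 0.0442) among 633 genes, and without cold array 2, TRIM22, TRIM13 and TRIM8 did (0.0231, 0.0323 and 0.0445) among 1272. With genes detected on all 10 arrays, TRIM22 passed (0.0445) among 115. At the unadjusted threshold of the methods, a p under 0.01, 2 TRIM genes fell and none rose, and 1 RNF gene rose and none fell, where 8.64% of all genes passed (5.21% higher and 3.43% lower). The 2 of 26 TRIM genes, TRIM22 and TRIM13, were a share close to that background, and 1 of 46 RNF genes, RNF144B, was below it. At a p under 0.05, 6 TRIM genes were lower and 2 higher, and 6 RNF genes were higher and 1 lower, beside 24.7% of all genes (12.2% higher and 12.5% lower). These splits moved with the scaling. With median centring, 0 RNF genes were higher and 15 lower at a p under 0.05, where 29.8% of all genes passed (882 higher and 6945 lower), and the TRIM genes were 1 higher and 11 lower. With Cy3 alone, 4 RNF genes were higher and 5 lower, and 2 TRIM genes higher and 6 lower, where 24.8% of all genes passed (3161 higher and 3366 lower). Over all genes at a p under 0.01, the 1371 higher and 901 lower became 215 and 948 with median centring, 640 and 865 with the scanner software's processed intensities, 505 and 588 in the deposited value table, and 1462 and 1890 without control array 5. The groups did not overlap for TRIM22 and TRIM59, which were lower on every cold array than on any control array, and for RNF31, which was higher, whereas 5.22% of all genes did not overlap (2.15% below control and 3.07% above).

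**Figure D3:**
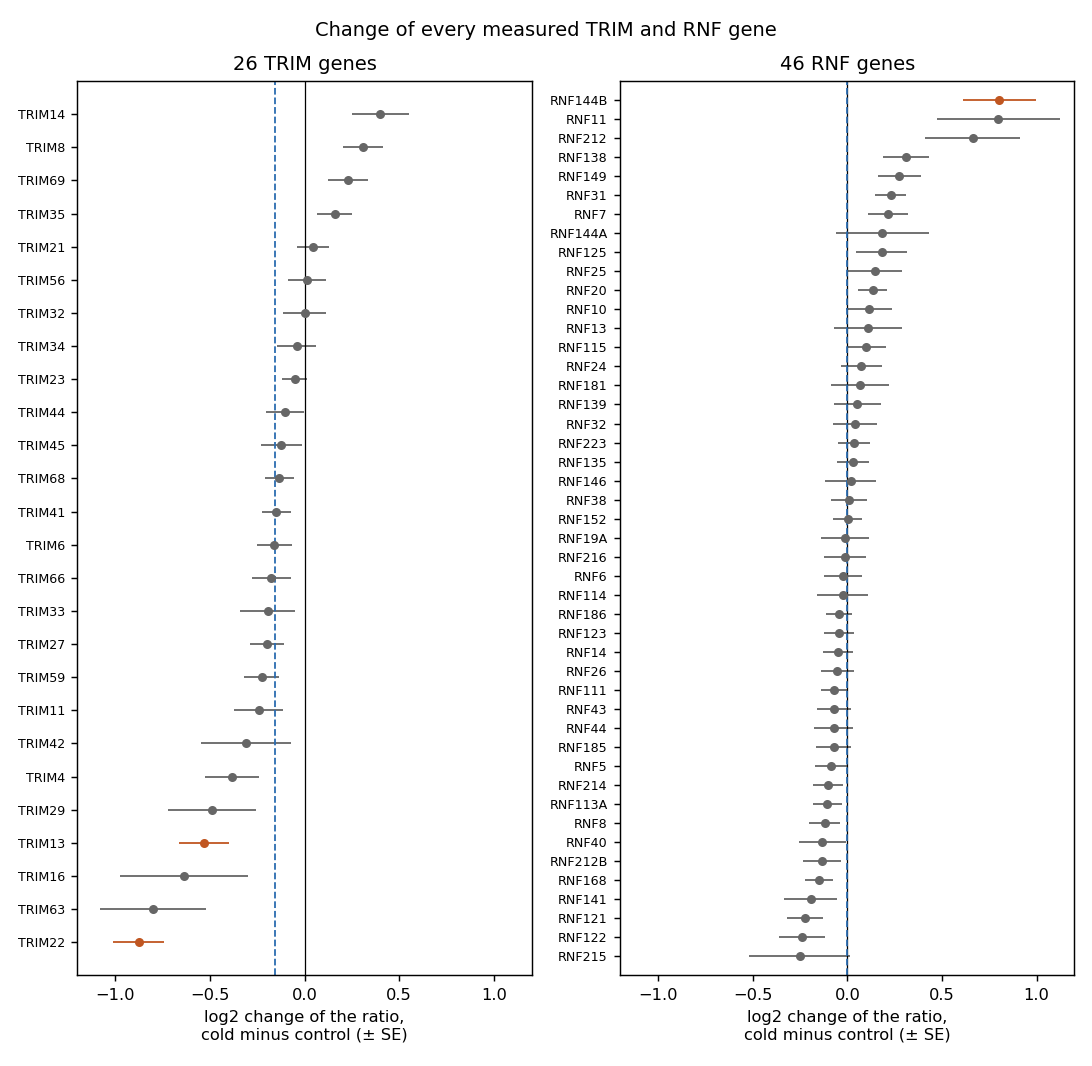
Log2 change of the ratio, cold minus control, with its standard error for each of the 26 TRIM genes (left) and 46 RNF genes (right), ordered by size, with genes under the unadjusted p of 0.01 in orange and the family median as a dashed line. The TRIM genes run from -0.88 (TRIM22) to 0.40 (TRIM14) and the RNF genes from -0.25 (RNF215) to 0.80 (RNF144B).

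Among the TRIM genes with antiviral or nucleic acid sensing roles, TRIM22 stood out from the rest of the members. TRIM22 (NCBI Gene 101674714), an interferon-induced ligase known in human cells for restricting viruses, had a log2 ratio of 0.60, 0.68, 0.31 and 0.88 on cold arrays 1 to 4, and between 1.28 and 1.79 on the control arrays, with a median of 1.48. The groups were separated by a gap, and all 4 of its probes were lower in cold. Its mean fell from 1.49 ± 0.21 (SD, 6 arrays) to 0.62 ± 0.24 (SD, 4 arrays), a log2 change of -0.88 ± 0.13 (SE), or 1.83-fold lower. The unadjusted p was 4.31e-05 and the adjusted p 0.0576, a value shared with other genes through the adjustment, and the exact permutation test over 210 splits of the arrays gave its smallest two-sided p, 0.00476. The lack of overlap puts the split at an extreme, so that the permutation p adds little to it.

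TRIM22 was the only member under the unadjusted threshold in all 24 settings tried. With Cy3 alone it went from 15.51 ± 0.18 to 14.61 ± 0.37 on the log2 scale, a change of -0.89 with an adjusted p of 0.0345, where 2.82% of all genes passed the adjusted threshold. The change was larger in the deposited value table (-1.42) and with median centring (-1.99). None of the other antiviral TRIM genes passed the unadjusted threshold for the ratio under the settings used throughout. TRIM14, a mitochondrial adaptor in antiviral signalling, had ratios of 1.39, 1.33, 0.84 and 1.10 in cold against 0.48 to 1.19 in control (median 0.70), a log2 change of 0.40 ± 0.15 (SE, adjusted p = 0.143) that became -0.40 with median centring. It was under the unadjusted threshold in 4 of 24 settings, at 0.48 to 0.51 (array weights, the replicate block, and without control array 5 or cold array 3).

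The antiviral list held 10 measured genes of 15. Of these, 6 were lower and 4 higher, and the median was -0.05. TRIM56, which acts in sensing of cytosolic nucleic acids, and TRIM23, which joins the RING to an ARF-type GTPase domain, varied least between control ferrets, over ranges of 0.12 and 0.11 on the log2 scale. Their log2 changes were 0.01 (95% confidence interval -0.21 to 0.24) and -0.05 (-0.20 to 0.10). TRIM21, the cytosolic antibody receptor, TRIM4, TRIM6, TRIM8, TRIM27 and TRIM34 completed the list, while TRIM5, TRIM25, TRIM26, TRIM38 and TRIM65 were not measured here. TRIM8 and TRIM4 were named after their values were seen. TRIM8 had a log2 change of 0.31 (adjusted p = 0.124) and, with Cy3 alone, of 0.34 with an adjusted p of 0.0489, and TRIM4 had one of -0.38 (adjusted p = 0.143). TRIM8 was under the unadjusted threshold in 6 of 24 settings, with a change of up to 1.13 (processed intensities). TRIM4 was under it in 5 of 24, among them the deposited value table (-0.86), median centring (-1.24) and the Cy5 intensity as a covariate (-0.60). For TRIM8, Cy5 was well above background in 7.5% of its spot sets, so that its ratio rests mostly on a reference near background.

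Both membrane-anchored TRIM genes were lower in cold. TRIM13 (NCBI Gene 101676096), a ligase anchored in the ER membrane with a role in ER-associated degradation, had a log2 ratio of -0.73, -0.35, -0.96 and -0.59 on cold arrays 1 to 4 and from -0.41 to 0.07, with a median of -0.13, in control. Cold array 2 lay within the control range, above control array 5, and the other 3 cold arrays lay below it. The mean fell from -0.13 ± 0.18 (SD, 6 arrays) to -0.66 ± 0.26 (SD, 4 arrays), a log2 change of -0.53 ± 0.13 (SE) with p = 0.00198 and an adjusted p of 0.0767 (exact permutation p = 0.00952, two-sided). All 8 probes of its 2 target sequences were lower, 5 of them at a p under 0.01, and the sequences gave -0.52 and -0.54. The change was -1.12 with the scanner software's processed intensities and -0.85 with median centring. With Cy3 alone it was -0.45 without overlap between the groups, and with the Cy5 intensity as a covariate it was -0.29, the only one of 24 settings in which TRIM13 was not under the unadjusted threshold.

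TRIM59, a ligase also anchored in intracellular membranes, had ratios of -0.53, -0.09, -0.24 and -0.10 in cold. In control, 5 arrays lay between -0.05 and -0.03 and 1 at 0.11. The groups did not overlap, but the gap was narrow, and the log2 change of -0.23 ± 0.09 (SE) had an adjusted p of 0.171 (exact permutation p = 0.00476, two-sided). TRIM59 was named for this lack of overlap, which puts the split at an extreme, so that the permutation p adds no support. Its change was -0.13 without cold array 1, -0.09 with Cy3 alone and 0.06 in the deposited value table.

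The remaining TRIM groups held few measured genes, and none of these passed the threshold under the settings used throughout. TRIM33 and TRIM66, chromatin cofactors of the TIF1 group, had log2 changes of -0.20 and -0.18, with adjusted p = 0.432 and 0.306. TRIM69, a microtubule-associated member, had one of 0.23 (adjusted p = 0.206). TRIM32, which carries NHL repeats and is known from muscular dystrophy, had one of 0.00065 (95% confidence interval -0.25 to 0.25). TRIM63, the muscle ligase also called MuRF1, was the member with the lowest ratio, at -3.73 ± 0.55 (SD) in control and -4.53 ± 0.39 in cold. It was under the unadjusted threshold in 5 of 24 settings, with changes from -0.98 (array weights) to -0.65 (no background subtraction) and of -0.97 without control array 5. Of the 2 erythroid TRIM genes listed, neither was measured.

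For 3 members with low ratios, the lowest values of each group fell on the arrays with the brightest reference. TRIM16, which lacks a RING and is known for the response to damaged lysosomes, had ratios of -2.18, -1.04, -1.16 and -1.83 in cold and from -1.89 to -0.25 in control, with a median of -0.64. The lowest control values were those of arrays 5 and 4, at -1.89 and -1.52, whose Cy5 intensities of 80 and 62 were the brightest in control, and the lowest value of all was that of cold array 1, the brightest in Cy5. The same 3 arrays held the lowest values of TRIM29, an epithelial member without a RING, and of TRIM63 within their groups. The order did not hold throughout. Cold array 3, brighter in Cy5 than cold array 4 (98 against 92), had the higher TRIM16 ratio, at -1.16 against -1.83. The log2 change of TRIM16 was -0.64 for the ratio (adjusted p = 0.267) and 0.45 for Cy3 alone (adjusted p = 0.125). That of TRIM29 was -0.49 (adjusted p = 0.222) and -0.01, and that of TRIM63 was -0.80 (adjusted p = 0.128) and -0.16. For these genes the direction or size therefore differed between the ratio and the ferret channel, and the part of the reference was not tested. Each of their target sequences rests on 2 probes. Those of TRIM16 were well above background in Cy3 on 7 of 10 arrays, and those of TRIM29 on 9 or 5.

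Among the RNF genes, the RING-between-RING ligases, which pass ubiquitin through a catalytic cysteine of their own, held the only called gene, with 3 of 6 measured members higher and 3 lower. RNF144B (NCBI Gene 101670165), a p53-induced member of this class, had a log2 ratio of 0.87, 1.44, 1.82 and 1.16 on cold arrays 1 to 4 and from 0.19 to 1.01, with a median of 0.44, in control. Cold array 1 lay below control array 5, and the other cold arrays lay above all control arrays. The mean rose from 0.52 ± 0.29 (SD, 6 arrays) to 1.32 ± 0.40 (SD, 4 arrays), a log2 change of 0.80 ± 0.19 (SE), or 1.75-fold higher, with p = 0.00166 and an adjusted p of 0.0736 (exact permutation p = 0.0143, two-sided). All 4 probes were higher at a p under 0.01. The call held in 20 of 24 settings, and the change was 0.71 with Cy3 alone, 0.49 in the deposited value table and 0.05 with median centring, the last 2 not under the threshold. The call was also lost with the scanner software's processed intensities and with the Cy5 intensity as a covariate.

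RNF31, the catalytic subunit of the linear ubiquitin assembly complex (LUBAC) that feeds NF-kB signalling, had ratios of 0.69, 0.40, 0.41 and 0.39 in cold and from 0.17 to 0.35 in control, with a median of 0.24. The groups did not overlap in the ratio, and all 8 probes were higher. The log2 change was 0.23 ± 0.08 (SE) with an adjusted p of 0.132 (exact permutation p = 0.00476, two-sided). The lack of overlap was among the rules that named RNF31. It puts the split at an extreme, so that the permutation p adds no support. RNF31 was under the unadjusted threshold in 2 of 24 settings, the methods' t-test and no filter on dim probes, both at 0.23. Its change was -0.15 with Cy3 alone, -0.02 in the deposited value table and -0.43 with median centring, so that the direction turned with the processing. Of its LUBAC partners and antagonists, 2 of 6 listed genes were measured and neither passed the threshold. RBCK1, the HOIL-1 subunit, had a log2 change of -0.04 and CYLD, a deubiquitinase of linear chains, one of 0.23. RNF144A, the close relative of RNF144B, had a log2 change of 0.19 (adjusted p = 0.678) in the ratio and of 0.82 (adjusted p = 0.0980) with Cy3 alone.

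**Figure D4:**
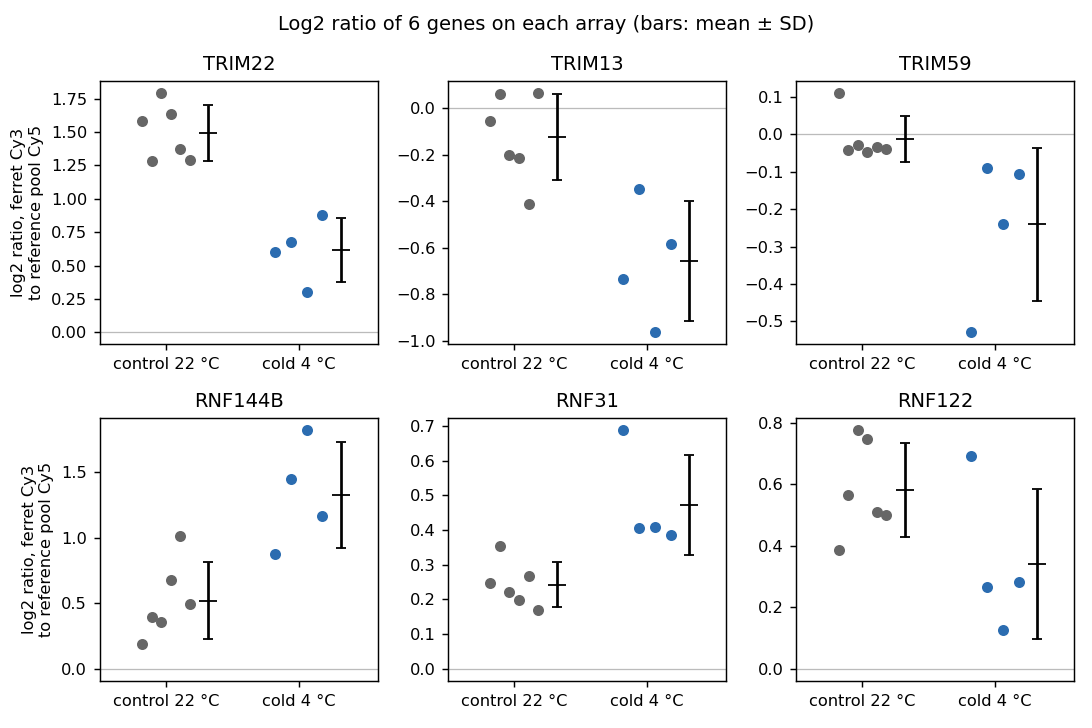
Log2 ratio of Cy3 to Cy5 on each of the 6 control (grey) and 4 cold (blue) arrays for TRIM22, TRIM13, TRIM59, RNF144B, RNF31 and RNF122, with the mean and SD of each group as bars. TRIM22 and TRIM59 are lower on every cold array than on any control array, RNF31 is higher, and the other 3 genes overlap.

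RNF122, an ER-associated ligase, went from 0.58 ± 0.15 (SD, 6 arrays) to 0.34 ± 0.24 (SD, 4 arrays), with ratios of 0.69, 0.26, 0.13 and 0.28 in cold and from 0.39 to 0.78 in control. Cold array 1 lay among the control arrays and the other 3 lay below them. The log2 change was -0.24 ± 0.12 (SE, adjusted p = 0.240) and not under the unadjusted threshold, whereas without cold array 1 it was -0.36 and under it (adjusted p = 0.136). It was also under it with Cy3 alone (-0.64, adjusted p = 0.0716), in the deposited value table (-0.72) and with median centring (-1.10). Of 7 measured ER genes of 12, 6 were lower and 1 higher, with a median of -0.07, and RNF121, a membrane-spanning ligase, had the lowest p of them with a change of -0.22 (adjusted p = 0.175).

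The other RNF groups showed no gene under the unadjusted threshold under the settings used throughout. Of 4 measured histone-directed ligases, 3 were lower and 1 higher, and RNF168, which ubiquitinates histones at DNA breaks, had the lowest p with a change of -0.15 (adjusted p = 0.231). RNF111, a SUMO-targeted ligase of TGF-beta signalling, had a change of -0.07, and its 7 target sequences ran from -0.13 to 0.02. Of 4 measured protease-associated domain genes, RNF149 had the lowest p with a change of 0.27 (adjusted p = 0.173). All 3 measured endosome and trafficking genes were higher, of which RNF11, a small ligase of the A20 complex, had a change of 0.80 ± 0.33 (SE, adjusted p = 0.168). Of the 7 measured innate immune ligases, 3 were higher and 4 lower, with a median of -0.01.

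RNF11 was the member with the second widest control range after TRIM16. Its ratio was 1.81, 1.05, 2.44 and 1.61 in cold and ran from 0.41 to 2.01 in control, with a median of 0.69. Control array 6 was the highest of its group at 2.01 and lay above 3 of the 4 cold arrays. Without it, the change was 1.01 and under the unadjusted threshold (adjusted p = 0.105), and with the replicate block it was 1.03 and under it as well. With median centring the change was -0.13, so that its direction turned with the scaling.

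The level in control PBMC relative to the pool is a property apart from the response to cold. In TRIM, 18 of 26 genes had a control mean above 0 and the means ran from -3.73 to 1.49, whereas in RNF, 36 of 46 did and the means ran from -0.61 to 0.93. TRIM22 led the TRIM genes at 1.49, above TRIM14 at 0.77 and TRIM11, linked to clearance of misfolded proteins, at 0.54, and TRIM22 did not overlap TRIM14 in control. The lowest were TRIM29 at -0.70, TRIM16 at -0.92 and TRIM63, which did not overlap TRIM16. In RNF, RNF11 at 0.93, RNF138, a ligase of the DNA break response, at 0.75 and RNF122 at 0.58 were highest, and RNF25 at -0.29, RNF141 at -0.50 and RNF144A at -0.61 were lowest, and every neighbour in this order overlapped the next. Ratios to the pool do not order the genes by RNA abundance, since the pool differs from gene to gene.

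Most members moved little. The change was under 0.2 on the log2 scale in either direction for 14 of 26 TRIM and 36 of 46 RNF genes, with a median standard error of 0.11 and 0.10. Of the genes with more than 1 measured probe, all probes pointed the same way for 17 of 24 TRIM genes, 13 of them lower, and for 15 of 44 RNF genes, 7 of them lower and 8 higher. Of the genes with several measured sequences, all sequences had the same sign in 8 of 11 TRIM and in 16 of 23 RNF genes. The direction in the ratio and with Cy3 alone was the same for 19 of 26 TRIM genes, 16 of them lower in both, and for 30 of 46 RNF genes, 17 lower and 13 higher in both.

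**Figure D5:**
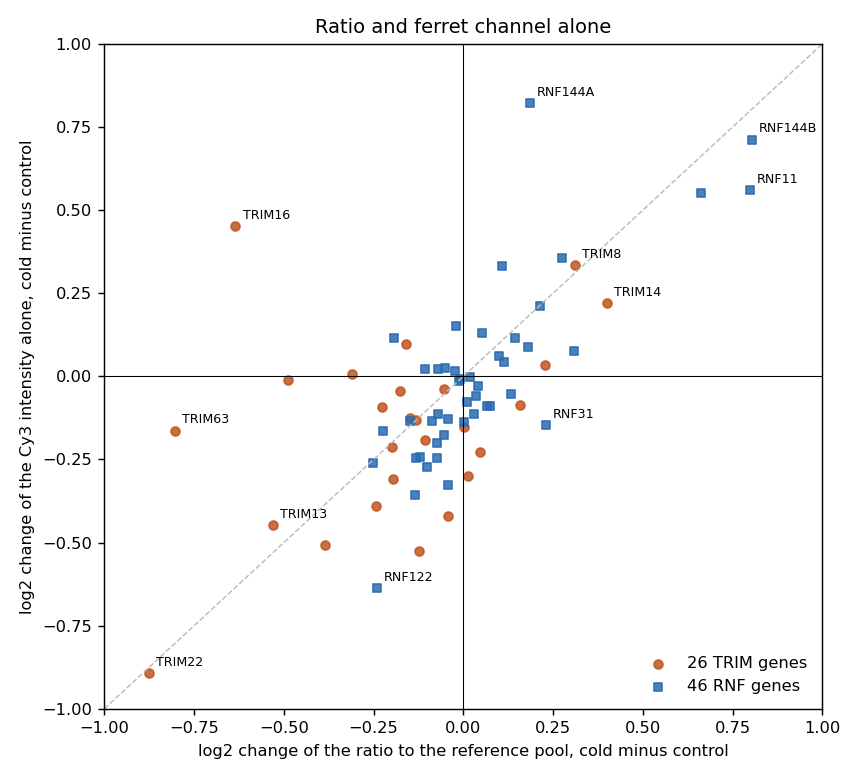
Log2 change of the ratio (horizontal) against that of the quantile-normalised Cy3 intensity alone (vertical), cold minus control, for the 26 TRIM (circles) and 46 RNF genes (squares), with the dashed line marking equal changes. TRIM22, TRIM13 and RNF144B lie near the line, while TRIM16 (-0.64 and 0.45) and RNF31 (0.23 and -0.15) have opposite signs.

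With Cy3 alone, 3 TRIM genes and 4 RNF genes had an unadjusted p under 0.01, where 9.84% of all genes did (5.48% higher and 4.36% lower). These were TRIM22 and TRIM13, lower, and TRIM8, higher, and RNF122 and RNF123, lower, and RNF144A and RNF144B, higher. RNF123, named after its values were seen, had a change of -0.33 (adjusted p = 0.0539) with Cy3 alone and of -0.04 in the ratio.

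The enzymes that work with these ligases were taken from lists. The 18 measured E2 genes of 33 listed split into 8 higher and 10 lower around a median of -0.02, and none was under the unadjusted threshold. All 3 measured ubiquitin and E1 genes were lower, with changes between -0.12 (UBA1, the main activating enzyme) and -0.05. Of 11 measured RIG-I-like receptor genes, in whose pathway several TRIM and RNF ligases act, 6 were lower and 5 higher around a median of -0.17, and TRAF3, an adaptor in this pathway, was the only one under the threshold, with a change of 0.60 ± 0.17 (SE, adjusted p = 0.0942). ISG15 had the largest change of this list, at -0.84 (adjusted p = 0.191). DDX58, which encodes RIG-I, had one of -0.58 (adjusted p = 0.245), and STING1 one of 0.31 (adjusted p = 0.196). Of 11 measured partners of the RNF2 and RING1 complex, 7 were lower and 4 higher, and BMI1, a core subunit, fell by 0.39 on the log2 scale (adjusted p = 0.0705) without overlap between the groups, although its Cy3 change was not under the threshold.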

How the data were processed

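PBMC RNA of 6 control and 4 cold ferrets was measured on 10 custom 2-colour Agilent arrays with 416280 spots of 181312 probes for 45328 target sequences. Spot intensities of both channels, written by Feature Extraction 10.7.3.1 and not normalized, were deposited with detection and outlier flags. A second table by the authors gives log2 values per sequence. With the means of each sequence and array removed, these correlated at 1 with the log2 Cy3 less log2 Cy5 intensities, over sequences on each array. The constants per array and sequence of this table are unknown, so its values served as an alternative. The planned mean intensities were not in the files used here, and the median intensities were used.

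The local background was removed by normexp (limma 3.58.1, R 4.3.3, offset 50), control spots were left out, and the log2 ratio was normalized by loess (span 0.3, 4 iterations). Outlier spots were left out, and spots and then probes of a gene were averaged. A probe had to have Cy3 above background in a share of 0.5 or more of its spots on 4 or more arrays, and 111051 probes of 26303 genes passed. The RefSeq gene table gave names to 21104 sequences, as 12918 genes. Another 2 genes were left out for a missing value.

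Cold and control were compared with limma (lmFit and eBayes, no covariate) over all genes with Benjamini-Hochberg adjustment, and by an exact permutation test for single genes. A gene is called at the unadjusted p of 0.01 of the methods. The precision is limited by the number of arrays, and nothing in the labels ties replicate numbers to a shared batch.

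The members and gene lists were chosen with earlier results of these data known. Genes were named by rule: those with a p under 0.01, those without overlap, TRIM13 and RNF122, the lead of each role list, and the extremes of control level and control range. Alternatives were other background corrections, scalings, filters and summaries, the methods' t-test, array weights, slide position, a replicate block, leaving out each array, and, added after the data had been seen, the Cy5 intensity as a covariate.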

Additional observations from a re-analysis of the deposited data

Results flagged for a closer look

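Among the 26 genes named by rule, each of the 52 group values was examined for a sample far from the others, and 2 were marked. Chance marks about 1 in 20 groups. For RNF31, cold array 1 had a log2 ratio of 0.69, apart from the next highest cold array at 0.41. For TRIM59, control array 1 had a log2 ratio of 0.11, apart from the next highest control array at -0.03. Over all 72 members, 7 of 144 group values were marked.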

How the results depend on the processing

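Of 595 values of the 26 genes named by rule under the alternatives, 572 kept their direction and side of the threshold or stayed uncalled, 5 lost the call, 18 gained it and 0 reversed a call, while 46 uncalled values changed sign. The 2 TRIM genes under the unadjusted threshold (8.64% of all genes) became 4 with median centring (4.42% of all genes), 5 with array weights (11%) and 2 to 4 when 1 array was left out (4.85 to 12.9%), 4 of them without control replicate 5 (12.7%). The 1 RNF gene became 0 with the processed intensities of the scanner software (5.72%) and with the Cy5 covariate (2.66%), 4 with Cy3 alone (9.84%), 2 without the filter on dim probes (6.95%), 2 with the methods' t-test (6.56%), and 1 to 2 when 1 array was left out (2 without control replicate 6, cold replicate 1 or cold replicate 4). The TRIM median of -0.15 became -0.39 with processed intensities, -0.19 without background subtraction, -0.39 with median centring, 0.027 in the deposited table, -0.043 without the filter, -0.10 with the Cy5 covariate and -0.17 to -0.12 when 1 array was left out. The RNF median of -0.0046 became -0.10 with processed intensities, -0.56 with median centring, -0.15 in the deposited table and -0.04 to 0.01 when 1 array was left out. The cause was not tested.

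The deviations of same-numbered arrays correlated at -0.30, 0.54, 0.10 and -0.19 for replicates 1 to 4. Correlations of mixed sign cannot show whether replicate numbers pair samples, and the labels tie these numbers to no shared batch. With the replicate number as a block, fitted on replicates 1 to 4 without control replicates 5 and 6, 4 TRIM and 2 RNF genes were under the threshold, as were 9.35% of all genes, and the medians were -0.16 and -0.0070. In the methods' t-test after Benjamini-Hochberg adjustment, 0 members passed, and at an unadjusted p under 0.05, 10 TRIM and 6 RNF genes did, beside 21.9% of all genes.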
